A study of Mus musculus with 8 samples.

Results

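Hox genes were taken as the protein-coding genes of the mouse annotation (GENCODE M21, build GRCm38/mm10) named Hox, a cluster letter from a to d and a number. The rule uses names only and no measured value, and it gave 39 genes of 21951 protein-coding genes. They lie in 4 clusters, with 11 genes in Hoxa on chromosome 6, 10 in Hoxb on chromosome 11, 9 in Hoxc on chromosome 15 and 9 in Hoxd on chromosome 2.

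Hox genes encode homeodomain transcription factors that give cells of the embryo their place along the head-to-tail axis. Genes at 1 end of a cluster, with low paralogue numbers, are typically used in anterior regions such as the hindbrain, and those at the other end, with high numbers, in posterior regions, so a neural cell often carries a record of its axial origin in its Hox genes. Genes with the same number in different clusters are paralogues that descend from 1 ancestral gene. Acetylation of lysine 27 of histone H3 (H3K27ac) marks active promoters and enhancers, whereas silent Hox genes are typically held under Polycomb repression.

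H3K27ac was measured by ChIP-seq in Oli-neu, a mouse cell line of embryonic oligodendrocyte progenitors (strain C57BL/6), in 2 states with 1 library per state. Proliferating cells were kept in medium with bFGF, Pdgf-BB, T3 and L-thyroxine. Differentiating cells had 1 day in medium without the growth factors and with 1 µM of the erb inhibitor PD174265, as the labels have it, whereas the general culture methods of the study give a longer time. ATAC-seq samples of differentiating cells with siPadi2 or siCtrl, 6 in all, were not used here.

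The deposited data are 1 list of peaks per state, 28924 in proliferating and 27965 in differentiating cells. Each peak has a fold enrichment over the local background of the peak caller and a −log10 q, the strength of evidence for the peak. The study's methods give the mapped reads of both libraries, but the lists hold no reads per peak, and a gene without a peak had no signal above the calling threshold rather than no acetylation. A peak does not tell the share of cells with the mark from the amount of the mark per cell, and with 1 library per state no test between the states was possible. Of 6 markers of the oligodendrocyte lineage, Cspg4, Olig1 and Sox10 had a peak within 1000 bp of the transcription start site (TSS) in both lists, Olig2 had one in proliferating cells alone, and Nkx2-2 and Pdgfra had none.

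In both states, H3K27ac peaks stood at Hox TSSs of the Hoxa and Hoxd clusters and at none of Hoxb and Hoxc. The TSS here is the 5′ end of the gene. At other annotated coding starts, Hoxc4 had a peak within 1000 bp in proliferating cells and Hoxc5 in differentiating cells. Within 1000 bp of the TSS, 7 of 39 Hox genes (17.9%, 95% exact binomial interval 7.54 to 33.5%) had a peak in proliferating cells, where 26.9% of all protein-coding genes had one. In differentiating cells the count was again 7 of 39, against 31.1% of all protein-coding genes. In either list 8 Hox genes (20.5%, 9.30 to 36.5%) had a peak, against 36.4% of all genes, and in both lists 6 (15.4%, 5.86 to 30.5%), against 21.6%. The Hox shares were below those of all genes in every count, and every interval still holds the share of all genes, in the count for either list only just. The intervals cover counting error only and treat genes as separate draws, which neighbours in a cluster are not.

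Both states shared 6 genes, among them Hoxa4, Hoxa5, Hoxa7, Hoxd3 and Hoxd4. Hoxa13 had a peak in proliferating cells alone and Hoxd8 in differentiating cells alone. The other 31 Hox genes (79.5%) had none within 1000 bp in either list. Of the 8 Hox genes with a peak in either list, 6 thus had one in both (exact interval 34.9 to 96.8%). Among all protein-coding genes with a peak in either list the share was 59.3%, which lies inside that interval. The TSSs of Hoxd3 and Hoxd4 lie 2 bp apart in the annotation and share 1 peak, so 6 separate peaks in each state account for the 7 genes.

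**Figure D1:**
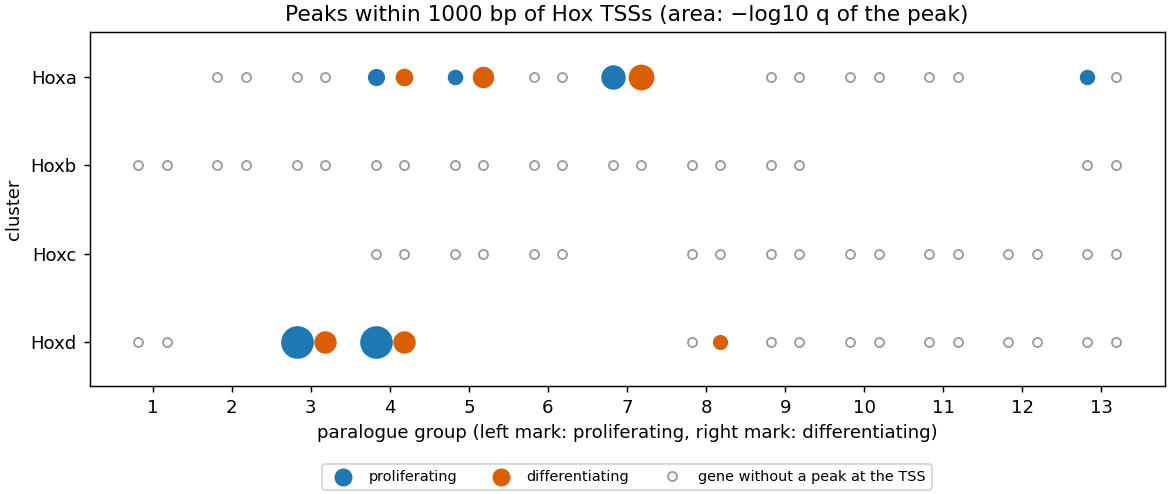
Peaks within 1000 bp of the TSS of each Hox gene, by cluster (rows) and paralogue group (columns), with proliferating cells on the left and differentiating cells on the right of each pair. The area of a filled mark is in proportion to the −log10 q of the peak (1.36 to 7.29), open circles are genes without a peak, 1 Hoxa gene is not drawn, and all 19 genes of Hoxb and Hoxc are open in both states.

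The DNA under these peaks is rich in CpG, the dinucleotide at which mammalian promoters are often unmethylated. 4 stretches are given to show the sequences at peaks that both states had: the parts upstream of the TSS of the Hoxd3 and Hoxa5 promoters, the intronic part of the region shared by both Hoxa7 peaks, and the middle of the region shared by both peaks in Haglr, the antisense RNA gene between Hoxd3 and Hoxd1. The Hoxa5 stretch was under the proliferating peak alone, and the Hoxd3 stretch reaches beyond the start of the proliferating peak. All are from RefSeq, build GRCm38.p6, written 5′ to 3′ on the strand of the gene, with each CpG in capitals.
Hoxd3, chr2:74711743-74711926, + strand: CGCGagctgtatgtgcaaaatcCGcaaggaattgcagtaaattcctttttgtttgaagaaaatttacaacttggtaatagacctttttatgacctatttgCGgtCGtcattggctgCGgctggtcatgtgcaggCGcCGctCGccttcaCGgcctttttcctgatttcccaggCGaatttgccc
Hoxa5, chr6:52204588-52204837, − strand: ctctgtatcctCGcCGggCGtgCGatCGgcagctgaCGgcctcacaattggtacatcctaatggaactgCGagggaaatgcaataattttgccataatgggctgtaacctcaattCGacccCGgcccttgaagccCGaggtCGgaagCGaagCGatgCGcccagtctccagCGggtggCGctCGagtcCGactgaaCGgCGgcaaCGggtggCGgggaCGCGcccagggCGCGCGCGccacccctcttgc
Hoxa7, chr6:52221399-52221546, − strand: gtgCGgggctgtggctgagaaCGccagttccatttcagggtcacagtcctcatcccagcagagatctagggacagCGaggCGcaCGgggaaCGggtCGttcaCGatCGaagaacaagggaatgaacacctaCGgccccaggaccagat
Haglr, chr2:74749790-74750089, − strand: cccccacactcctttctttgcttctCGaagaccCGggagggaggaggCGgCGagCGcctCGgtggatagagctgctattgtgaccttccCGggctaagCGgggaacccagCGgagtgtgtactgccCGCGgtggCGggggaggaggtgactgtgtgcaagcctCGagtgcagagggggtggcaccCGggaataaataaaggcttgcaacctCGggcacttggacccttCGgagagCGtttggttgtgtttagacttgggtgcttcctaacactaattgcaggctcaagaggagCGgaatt

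These stretches hold 11 CpG in 184 bases, 28 in 250, 10 in 148 and 18 in 300. Among 32851 RefSeq promoters (250 bases before to 50 after a start), the median was 7 CpG, with quartiles of 3 and 20. The whole windows of Hoxd3 and Hoxa5 hold 20 and 29 CpG, above 73.5% and 87.1% of those promoters.

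Both windows hold 1 CCAAT box (CCAAT) and 1 retinoic acid half-site (AGGTCA), counted on both strands, and no GC box (GGGCGG), no match to the letters TATAAA of the TATA box and no Pbx-Hox site (TGATNNAT). The CCAAT box was in 37.4% of all RefSeq promoters and in 15 of 24 Hox promoters of the table, and the retinoic acid half-site in 16.3% and 7 of 24. The GC box was in 35.7% and 10 of 24, the TATA box in 13.6% and 4 of 24, and the Pbx-Hox site in 8.85% and 4 of 24. These are matches of letters and no test was run on them.

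Hoxa4 (ENSMUSG00000000942.10) and Hoxa5 (ENSMUSG00000038253.6) are middle genes of the cluster, used in the hindbrain, cervical and upper trunk region. At Hoxa4 both peaks covered the TSS, with a fold enrichment of 3.34 and a −log10 q of 1.81 in proliferating cells and 3.15 and 1.93 in differentiating cells. The differentiating peak, 484 bp wide, lay wholly within the proliferating one, 1346 bp wide. At Hoxa5 the values were 2.99 and 1.44 in proliferating and 3.48 and 2.96 in differentiating cells. The proliferating Hoxa5 peak covered the TSS, whereas the differentiating one began 321 bp inside the gene, and the part in common was 394 bp.

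Hoxa7 (ENSMUSG00000038236.8), a gene of the trunk region, had the strongest promoter peaks of Hoxa in both states. Fold enrichment was 4.39 with a −log10 q of 3.93 in proliferating cells and 4.18 with 4.41 in differentiating cells, and 91.4% and 92.1% of all peaks in the 2 lists had a lower −log10 q. The peaks lay 163 and 29 bp inside the gene from its outermost annotated TSS. The start that RefSeq gives for Hoxa7 lies 2826 and 2809 bp from them, so they lie at the outer start, whose first exon is 5′ UTR, and not at the RefSeq start.

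Hoxa13 (ENSMUSG00000038203.18), the most posterior gene of Hoxa, known for limb and urogenital development, had a weak peak in proliferating cells that began 552 bp inside the gene. Its fold enrichment was 3.09 and its −log10 q 1.42, above 8.49% of the list. In differentiating cells the nearest peak was 27466 bp away. Hoxa13 was the farthest inside the limit of 1000 bp in proliferating cells, and the nearest gene outside it was Hoxc11 at 3241 bp. In differentiating cells Hoxa5 at 321 bp was the farthest inside and Hoxa9 at 1396 bp the nearest outside.

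Hoxd3 (ENSMUSG00000079277.9), an anterior gene of Hoxd, carried the Hox promoter peak with the highest −log10 q of either list. In proliferating cells the peak (chr2:74711765-74712521) had a fold enrichment of 4.40 and a −log10 q of 7.29, above 98.4% of the list. In differentiating cells the peak (chr2:74711644-74713540) had 3.06 and 3.26, above 84.0% of the list. Both covered the TSS, and the narrower proliferating peak lay wholly within the differentiating one, which was 1897 bp wide against 757 bp.

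For Hoxd4 (ENSMUSG00000101174.8) the same peaks were counted because a processed transcript of the gene is annotated to start beside that of Hoxd3. RefSeq starts Hoxd4 at chr2:74721978, which was 5656 bp from the nearest proliferating peak and 8438 bp from the nearest differentiating one. The count of Hoxd4 thus turns on the annotation used. With the starts of protein-coding transcripts only, Hoxd4 had another peak in proliferating cells, 560 bp from the nearest coding start, and none in differentiating cells.

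Hoxd8 (ENSMUSG00000027102.4) had a peak across its TSS in differentiating cells, with a fold enrichment of 2.68 and a −log10 q of 1.36, above 15.3% of the list. In proliferating cells the nearest peak was 7150 bp away. The 2 genes that had a peak in 1 state alone, Hoxa13 and Hoxd8, thus had the weakest Hox promoter peaks of their lists by −log10 q.

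**Figure D2:**
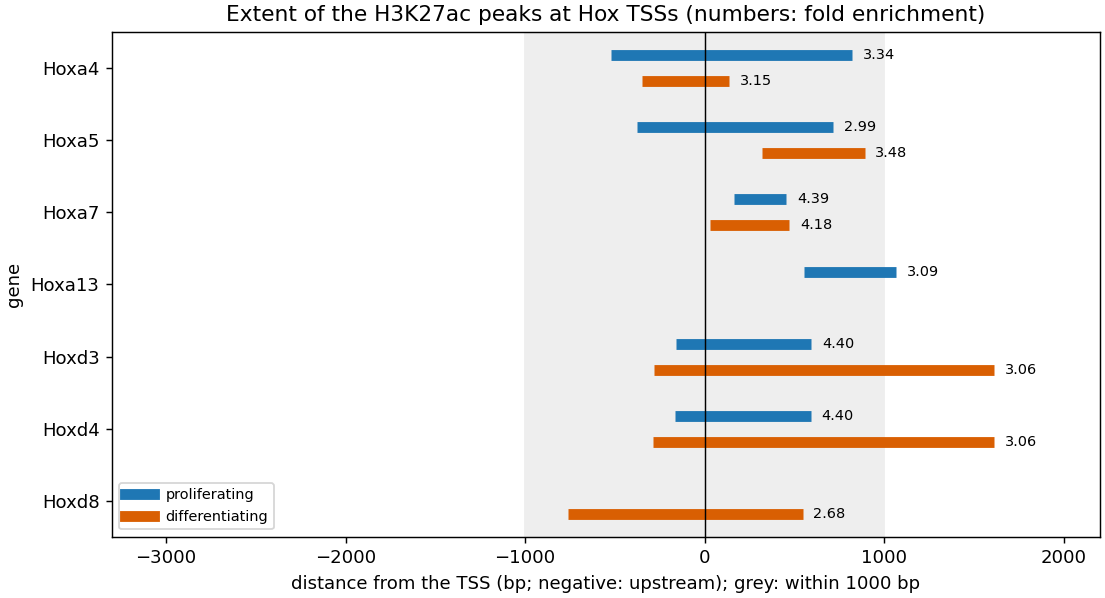
Extent of the peaks at Hox genes with a peak within 1000 bp of the TSS (1 Hoxa gene not drawn), in bp from the TSS with the direction of the gene from left to right; the number beside each bar is its fold enrichment. The peaks of Hoxa7 and Hoxa13 lie inside the gene, and those of Hoxa4, Hoxd3 and Hoxd4 across the TSS in both states.

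Among themselves the 6 promoter peaks of each list had a median fold enrichment of 3.22 (2.99 to 4.40) in proliferating and 3.11 (2.68 to 4.18) in differentiating cells. The peaks at TSSs of all protein-coding genes, 5146 and 5945 of them, had medians of 3.63 and 3.43. The median −log10 q was 2.35 (1.42 to 7.29) and 2.92 (1.36 to 4.41) at Hox genes, beside 2.72 and 2.75 at all genes. Hox promoter peaks were of moderate strength, with the fold enrichment a little under the median of all genes and −log10 q on both sides of it.

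By cluster, 5 of 11 Hoxa genes had a promoter peak in proliferating and 4 of 11 in differentiating cells, beside 28.6% and 32.8% of all genes of chromosome 6. In Hoxd it was 2 of 9 and 3 of 9, beside 28.4% and 33.2% of chromosome 2. Hoxb had 0 of 10 in both states (exact interval up to 30.8%), where 34.0% and 39.7% of the genes of chromosome 11 had one, and Hoxc 0 of 9 (up to 33.6%), where 39.2% and 44.8% of chromosome 15 had one. Joined after the values were seen, Hoxb and Hoxc had 0 of 19 (up to 17.6%) and Hoxa and Hoxd 7 of 20 (35.0%, 15.4 to 59.2%) in each state. The count of 0 in Hoxc depends on the window and start: with 3000 bp upstream to 100 bp downstream Hoxc4 had a peak in differentiating cells, and with every annotated transcript start Hoxc4 had one in proliferating and Hoxc5 in differentiating cells.

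Along the clusters, in paralogue groups 1 to 8, 6 of 23 genes (26.1%) had a promoter peak in proliferating and 7 of 23 (30.4%) in differentiating cells, near the 26.9% and 31.1% of all protein-coding genes. In groups 9 to 13, the genes of posterior regions, it was 1 of 16 (Hoxa13; 6.25%, 0.158 to 30.2%) and 0 of 16 (up to 20.6%). This split was also chosen with the values known. Within group 4, Hoxa4 and Hoxd4 were counted and Hoxb4 and Hoxc4 were not, and within group 7 Hoxa7 was counted and Hoxb7 was not. These calls turn on the start used. At the RefSeq starts, Hoxc4 lay 15 bp from a proliferating and 6158 bp from a differentiating peak, and Hoxd4 5656 and 8438 bp.

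The Hoxb genes were also the farthest from any peak. From TSS to nearest peak the median was 21300 bp (4620 to 52105) in proliferating and 23400 bp (4349 to 80903) in differentiating cells. In Hoxa it was 3760 and 3490 bp, in Hoxc 16300 and 7800 bp, and in Hoxd 14000 and 11900 bp. Over all 39 genes the medians were 14.0 and 9.36 kb, beside 17.4 and 15.7 kb over all protein-coding genes. The quartiles were 3.95 and 23.6 kb in proliferating cells for Hox genes and 0.456 and 66.9 kb for all genes, so Hox TSSs were seldom next to a peak and seldom far from one.

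**Figure D3:**
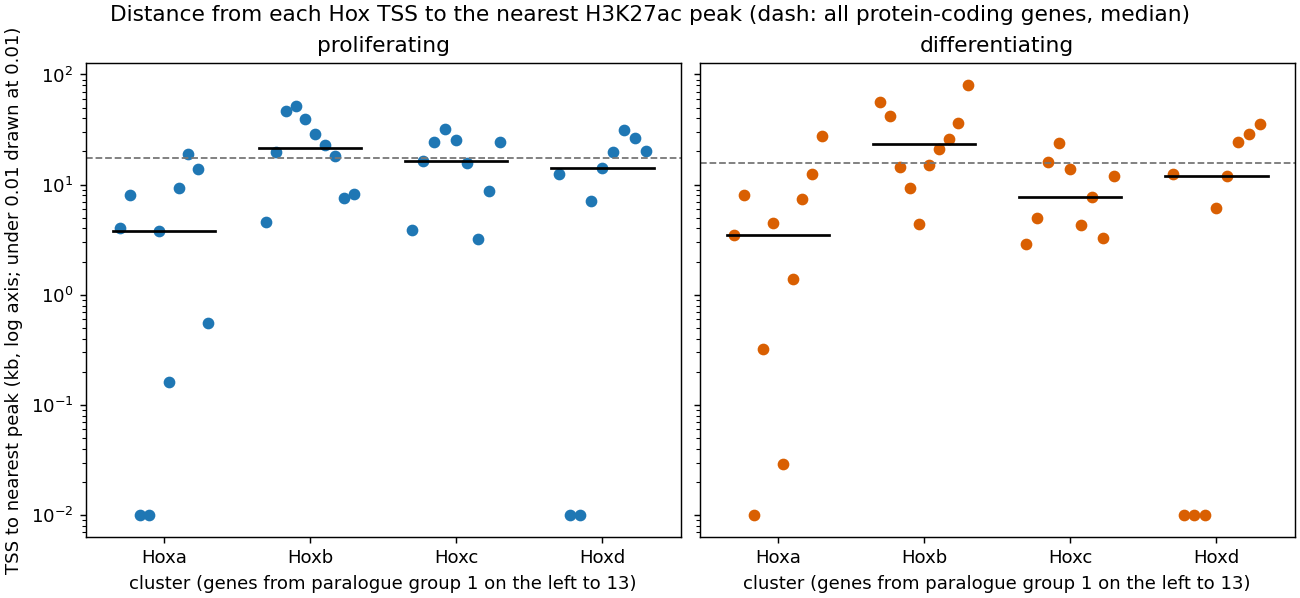
Distance from each Hox TSS to the nearest peak in kb on a log axis, 1 point per gene (1 Hoxa gene not drawn), with the genes of each cluster from low to high paralogue number; the short line is the median of the cluster and the dashed line the median of all protein-coding genes (17.4 kb and 15.7 kb). Points under 0.01 kb are drawn at 0.01 kb. No Hoxb or Hoxc TSS, taken as the 5′ end of the gene, is within 1000 bp of a peak.

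Over the gene body, from annotated start to end, 8 of 39 Hox genes (20.5%) had a peak in proliferating cells, beside 41.9% of all protein-coding genes, and 9 (23.1%) in differentiating cells, beside 43.5%. Hox genes are short, with a median length of 3.49 kb against 17.4 kb for all genes, and the counts were not adjusted for length. Genes with a body peak but none at the TSS were Hoxa3 in both states, Hoxc4 in proliferating cells, and Hoxa10 and Hoxc5 in differentiating cells. The 3 peaks over Hoxa3 in each state lay in an annotated length of 44275 bp that also spans Hoxa4 and Hoxa5.

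Each cluster with 50 kb on both sides was then read as a region. The 4 regions, 892 kb in all, held 25 proliferating and 18 differentiating peaks, or 28.0 and 20.2 peaks per Mb beside 10.6 and 10.3 in the genome. Their median fold enrichment was 3.34 and 2.96, beside 3.33 and 3.13 for the whole lists. The median −log10 q was 1.89 and 1.56, beside 1.93 and 1.89. Peaks of the 4 regions together were thus denser than in the genome, but those of Hoxb in differentiating cells, at 3.65 per Mb, were not. Gene density was not adjusted for. Median strength was near that of the list in proliferating cells and somewhat below it in differentiating cells.

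**Figure D4:**
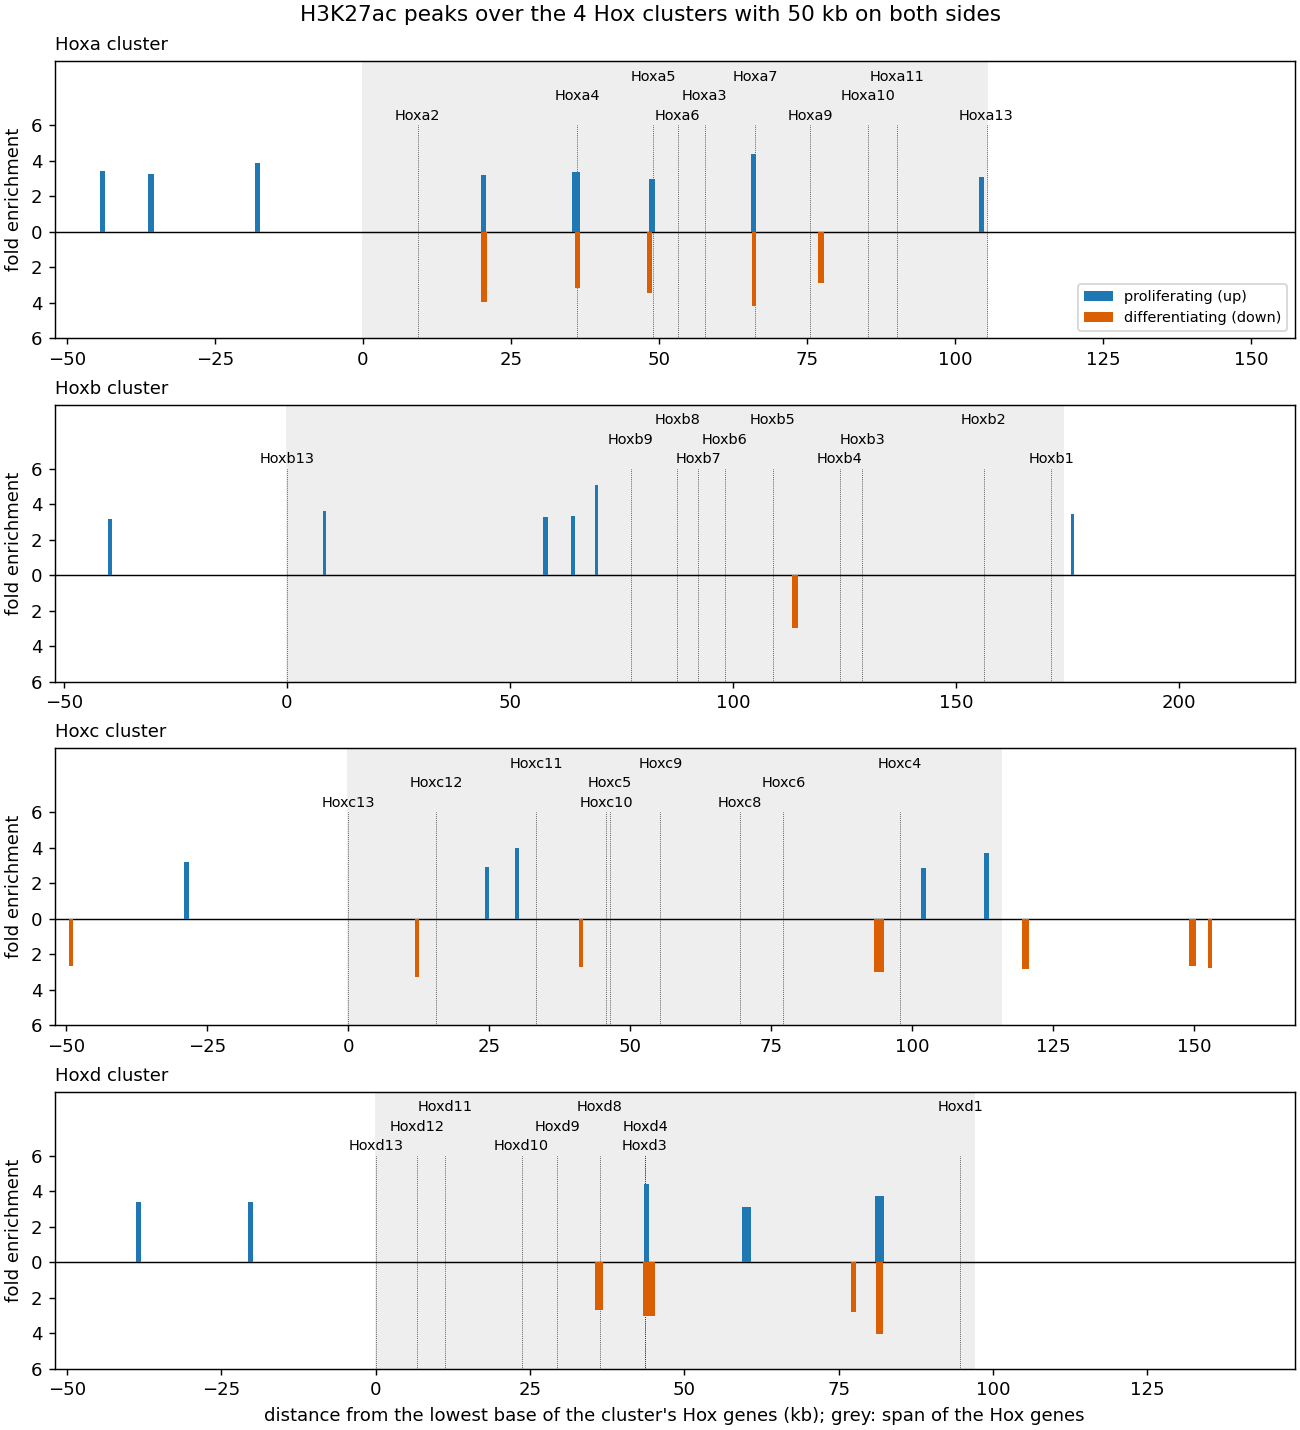
Peaks over the 4 Hox clusters with 50 kb on both sides, in kb from the lowest base of the Hox genes, with fold enrichment upwards for proliferating and downwards for differentiating cells; peaks narrower than 0.8 kb are drawn 0.8 kb wide, dotted lines mark TSSs and grey the span of the Hox genes. The peaks at 1 Hoxa gene are not drawn. Bars that face each other are seen in Hoxa and Hoxd only, and Hoxb has 6 proliferating peaks against 1 differentiating peak.

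The states shared peaks in Hoxa and Hoxd and none in Hoxb and Hoxc. With any shared base counted, 7 of 25 proliferating region peaks (28.0%, 12.1 to 49.4%) had a counterpart, beside 29.2% of that list, and 7 of 18 differentiating ones (38.9%, 17.3 to 64.3%), beside 30.1%. All 7 shared regions lay within the spans of Hoxa (5) and Hoxd (2), where 7 of 9 proliferating and 7 of 10 differentiating peaks were shared. With the flanks, 7 of 14 proliferating peaks and 7 of 10 differentiating peaks of Hoxa and Hoxd were shared. In the regions of Hoxb and Hoxc, flanks included, it was 0 of 11 and 0 of 8, for which the exact intervals reach 28.5% and 36.9%. The clusters were joined in these pairs after the values were seen, and the share over all 4 regions was near that of the lists.

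In Hoxa, the region held 9 proliferating and 6 differentiating peaks, or 43.8 and 29.2 per Mb beside 12.1 and 11.5 on chromosome 6. Of the 5 shared, 4 were promoter peaks. The fifth (chr6:52175601-52176372) lay in an intron of Hoxa3 in the GENCODE annotation and within 1000 bp of the start of Hoxaas3, an antisense RNA gene, with a fold enrichment of 3.19 in proliferating and 3.95 in differentiating cells. The −log10 q there was 1.91 and 3.97. In proliferating cells 3 more peaks lay in a flank of the cluster, and in differentiating cells the flanks held none.

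In Hoxd, 5 proliferating and 4 differentiating peaks gave 25.4 and 20.3 per Mb beside 13.1 and 12.9 on chromosome 2. The second shared region (chr2:74749388-74750490) lay in an exon of Haglr, 12490 bp from the TSS of Hoxd1, with a fold enrichment of 3.70 and 4.03 and a −log10 q of 3.37 and 4.24. In differentiating cells it was the strongest peak of Hoxd by both values. It was not within 1000 bp of a Hox TSS and enters no count of promoters.

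In Hoxb, 6 proliferating peaks (21.9 per Mb, beside 16.5 on chromosome 11) stood against 1 differentiating peak (3.65, beside 15.6). The strongest, chr11:96263587-96263849, had a fold enrichment of 5.10 and a −log10 q of 5.13, above 95.9% of the proliferating list. It lay on an exon of the noncoding gene Gm53, 7608 bp upstream of Hoxb9, and 2 weaker proliferating peaks lay in the same gene. The width of 263 bp is the shortest in the list and is shared by 22.9% of it. The differentiating peak was between Hoxb5 and Hoxb4, 4349 bp from the TSS of Hoxb5, with a fold enrichment of 2.98 and a −log10 q of 1.45.

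In Hoxc, 5 proliferating and 7 differentiating peaks (23.2 and 32.4 per Mb) stood beside 27 per Mb in both lists on chromosome 15. Their median −log10 q was 1.81 and 1.31, beside 1.93 and 1.89 for the whole lists, and 4 of the 7 differentiating peaks lay in the flanks. The strongest by −log10 q, chr15:102950896-102951186 in proliferating cells, had a fold enrichment of 3.97 and a −log10 q of 3.43, above 87.8% of the list, and lay 3241 bp upstream of Hoxc11. At other annotated starts, 1 coding transcript of Hoxc4 began 15 bp from a proliferating peak (fold enrichment 3.67, −log10 q 2.46). That start of Hoxc4 is also its RefSeq start. A coding transcript of Hoxc5 began 559 bp from a differentiating peak (2.99 and 1.62). By −log10 q the differentiating peaks of Hoxc stood above 0.604% to 66.9% of their list, and the proliferating ones above 4.11% to 87.8%. None was shared between the states.

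The differentiating peak beside Hoxc5 (chr15:103014374-103016029) also covered Mir615, the only one of 7 miRNA genes in the regions with a peak within 1000 bp of its start. Its mature miRNAs are given from RefSeq, GRCm38.p6, with the seed (bases 2 to 8) in capitals.
miR-615-5p, chr15:103014926-103014947, + strand: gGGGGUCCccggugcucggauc
miR-615-3p, chr15:103014969-103014990, + strand: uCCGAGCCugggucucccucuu
In proliferating cells the nearest peak to Mir615 was 7864 bp away. The miR-10 and miR-196 genes of the clusters, long known to share the expression of neighbouring Hox genes, had no peak within 1000 bp in either list.

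Of the 60 other annotated genes that start in the regions, 7 had a peak within 1000 bp of the start in proliferating and 8 in differentiating cells. Hoxaas3 was among the 3 with one in both. Gm27280, Gm53, Gm27337 and Gm28230 had one in proliferating cells only, and 5730596B20Rik, Hoxb5os and Mir615 were among those with one in differentiating cells only. The starts of Hottip and Hotair, known noncoding regulators of Hox clusters, had none. A weak proliferating peak (fold enrichment 2.93, −log10 q 1.37) lay on an exon of Hotair, 1886 bp from its start.

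Hox promoters were richer in CpG than most, whether or not they carried a peak. Within 1000 bp of the TSS the ratio of observed to expected CpG had a median of 0.591 at Hox genes and 0.474 at all genes, and 31 of 39 Hox genes were above the median of all genes. The 8 genes with a promoter peak had a median of 0.728 (0.553 to 0.886) and the 31 without one 0.551 (0.173 to 0.840). Among genes above that median, 46.7% of 10969 protein-coding genes had a peak in proliferating and 54.4% in differentiating cells, whereas 7 of 31 Hox genes (22.6%, 9.59 to 41.1%) had one in each state. These shares of all genes lie above the interval for Hox genes. That interval treats genes as separate draws, which neighbours in a cluster are not, and Hoxd3 and Hoxd4 share a peak. It is therefore too narrow to decide whether Hox genes had fewer peaks than other genes above that median, and no test was run.

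The genes of proteins that work with or on Hox genes were read in the same lists. The 11 TALE homeodomain genes listed were Meis, Pbx, Pknox and Tgif genes, some of whose products bind DNA together with Hox proteins. Of these, 9 had a promoter peak in proliferating and 9 in differentiating cells (81.8%, 48.2 to 97.7%). Fold enrichment was 4.29 and 3.02 at Meis1, 4.23 and 3.42 at Pknox2, 4.18 and 3.73 at Pknox1 and 3.53 and 3.61 at Pbx2. The share of TALE genes was thus above that of all protein-coding genes, unlike that of the Hox genes. Beside genes above the median CpG, its interval lies above the 46.7% of proliferating cells but holds the 54.4% of differentiating cells. The TALE genes were not selected by CpG, so this comparison is not matched. Their list was also chosen with earlier results of these data known, and no test was run.

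Of 13 genes of Polycomb repressive complex 1, which holds Hox genes silent, 10 had a promoter peak in each state (76.9%). The exact interval starts at 46.2%, above the 26.9% and 31.1% of all protein-coding genes. It holds the 46.7% and 54.4% of genes above the median CpG, to which these genes were not matched. This list too was chosen with earlier results known, and no test was run. Fold enrichment was 4.31 and 5.01 at Rnf2, 4.17 and 4.43 at Ring1 and 3.73 and 3.53 at Bmi1. Of 12 upstream regulators 4 had one in both states (33.3%, 9.92 to 65.1%), and in each state the share was near that of all genes. Ctcf, Gbx2 and Kmt2a were among the 4, and the Cdx and Cyp26 genes had none.

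Of 53 genes of other homeobox families, 13 (24.5%, 13.8 to 38.3%) had a promoter peak in each state, near the share of all genes. Irx5, with a fold enrichment of 3.91 and 3.60, and Six2, with 4.06 and 4.68, were among them. Of 5 ParaHox and cluster-adjacent homeobox genes (Gsx1, Gsx2, Pdx1, Evx1 and Evx2) none had one. The exact interval reaches 52.2% and holds the share of all genes.

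**Figure D5:**
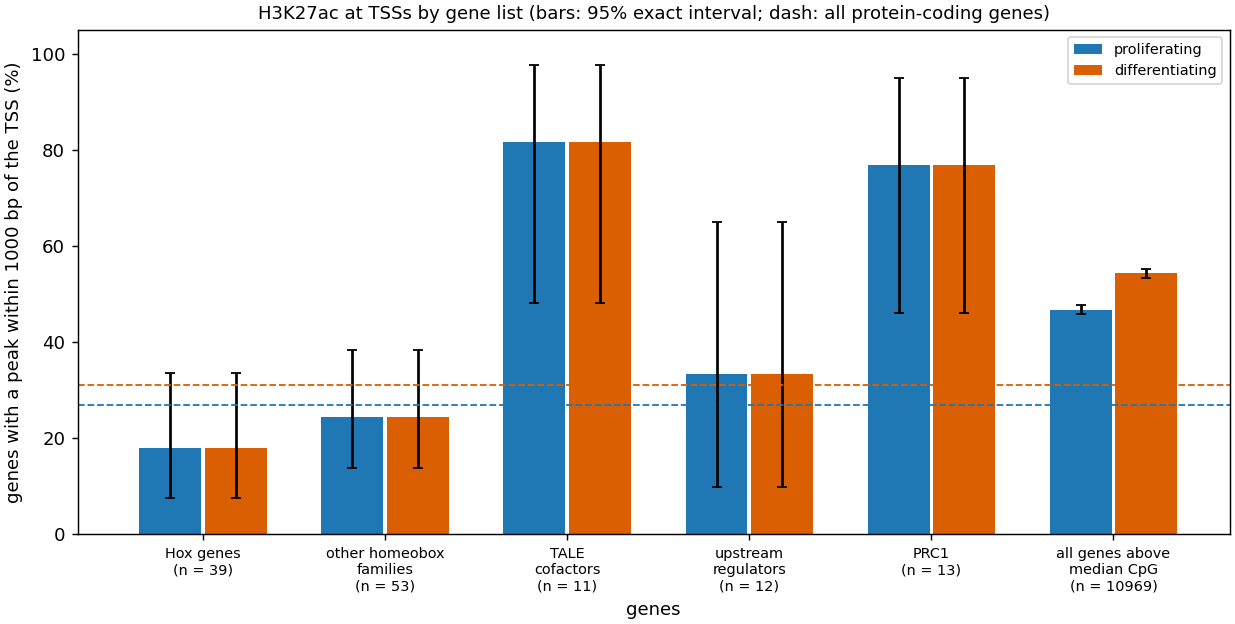
Percent of genes with a peak within 1000 bp of the TSS, by gene list and state, with 95% exact binomial intervals as error bars and the share of all protein-coding genes as dashed lines (26.9% and 31.1%). Hox genes (17.9% in each state) lie lowest of the lists drawn, the 5 ParaHox and cluster-adjacent genes with none are not drawn, and TALE and Polycomb genes lie above both lines.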

How the data were processed

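Per the labels and the methods of the study, the authors mapped H3K27ac ChIP-seq reads to GRCm38/mm10 with Bowtie2 2.1.0, kept unique reads, removed duplicates with SAMtools, called broad peaks with MACS2 2.0.10 and removed blacklisted regions with bedtools. No input library is named. The deposited lists give each peak with 3 values and no header, taken in the caller's usual order as fold enrichment, which is a ratio, then −log10 p and last −log10 q. The methods of the study state a q cutoff of 0.05, but the deposited lists also hold weaker peaks, down to a −log10 q of 1.00 and 1.01, and all were used.

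Genes, transcripts and exons came from GENCODE M21 and sequences from RefSeq GRCm38.p6, the same build. A TSS was the 5′ end of the gene. A peak was counted within 1000 bp of it, over the gene body or within 50 kb of a cluster span when any base was shared. Shares have 95% exact (Clopper-Pearson) intervals. With 1 library per state no test was run. CpG content was computed over the same 1000 bp on both sides. Python 3.11.15, numpy 2.4.6, pandas 2.3.3, scipy 1.17.1 and matplotlib 3.10.9 were used. The code for peak counting was checked on simulated peaks beside well separated starts of a single chromosome. Of those planted within 1000 bp, 100% were found, and starts as close as those of Hox genes were not simulated.

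The members and gene lists were chosen with earlier results of these data known. Named were all Hox genes, the other genes of the regions with a peak at the start, and list members with a high −log10 q. Promoter sequences were to be printed for Hox genes with a peak in both lists. They were printed for Hoxd3 and Hoxa5 without UTR bases, since the RefSeq starts of Hoxa7 and Hoxd4 lie over 1000 bp from their promoter peaks. The stretches of Hoxa7 and Haglr were added after the values were seen, and 22 Hox genes had a promoter in the table, 24 promoters in all. The ATAC-seq samples were not analysed here, and the values of 3 genes, of which 1 is a Hox gene, are not reported here.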

Additional observations from a re-analysis of the deposited data

How the results depend on the processing

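Of 73 values computed under other settings, 56 stayed within 1.5 times the value reported (for shares, within its interval) and 17 moved. With peaks of a −log10 q of at least 5, Hox genes with a promoter peak numbered 2 in proliferating cells (Hoxd3 and Hoxd4), 0 in differentiating cells, 2 in either list and 0 in both. Body peaks numbered 2 and 0, region peaks 2 and 0, and 0% of the proliferating region peaks had a counterpart, with no value for differentiating cells. With fold enrichment at or above the median of the list, promoter peaks numbered 4, 3, 5 in either list and 2 in both, body peaks in differentiating cells 4, and region peaks 13 and 6. With flanks of 100 kb the differentiating list held 31 region peaks. These are counts of fewer peaks or of wider regions.

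The genes counted changed with the window while the counts stayed close. With 3000 bp upstream to 100 bp downstream, the promoter region of the study, Hoxa7 and Hoxa13 dropped out in proliferating cells, leaving 5, and in differentiating cells Hoxa9 and Hoxc4 entered and Hoxa5 dropped out, giving 8. With every annotated transcript start, Hoxc4 entered in proliferating cells (8), and Hoxa10 and Hoxc5 in differentiating cells (9). With protein-coding transcripts only, a setting chosen after seeing the data, Hoxc4 entered in proliferating cells (8), and in differentiating cells Hoxc5 entered and Hoxd4 dropped out (7). Hoxb had no promoter peak under any setting. No paired analysis was possible because each state has 1 ChIP-seq library, and the numbered ATAC-seq samples were not used here. With peaks of a q of at most 0.05 only, the counts of Hox genes with a promoter peak were 7 and 7, and region peaks numbered 25 and 14. The lists hold no reads per peak, so the error of a single peak is unknown.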
